A study of Drosophila melanogaster with 3 samples.

Results

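The heat shock and chaperone genes described here are 10 of the 18164 annotated genes on the 6 main chromosome arms of Drosophila melanogaster: Hsp22, Hsp23, Hsp26, Hsp27, Hsp67Ba, Hsp67Bc, Hsp83, Hsc70-4, DnaJ-1 and lncRNA:Hsromega. They were listed by name, all with unique promoter sequence. Each was examined for peak summits within 500 bp of any annotated start, and in its gene body plus 5 kb on both sides. The peaks come from chromatin immunoprecipitation and sequencing (ChIP-seq, which maps where a protein sits on DNA) of CG31627, fused at its C-terminus to GFP in a transgenic fly line and precipitated through the GFP tag. Chromatin came from whole white prepupae, animals at the start of metamorphosis, of unknown age and with males and females mixed, in 3 biological replicates of a single group, so the peaks average over all tissues. The labels do not say which promoter drives the fusion. The 7717 peaks that the authors kept by their irreproducible discovery rate (IDR), a measure of how far replicates rank peaks alike, are called IDR peaks below, and their ranks run by the authors' signal value from 1, the strongest. Positions are on dm6.

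Heat shock proteins are molecular chaperones: they bind unfolded proteins, keep them from aggregating and help them refold. In flies, heat makes the heat shock factor Hsf assemble on arrays of the inverted pentamers nGAAn, the heat shock elements, in front of these genes, where the GAGA factor and a paused RNA polymerase already keep the promoter accessible. The small heat shock genes of the 3L cluster are also switched on without heat, by the steroid hormone ecdysone, around the time of puparium formation. The remaining members are the cytosolic Hsp90 gene Hsp83, the constitutive Hsp70 gene Hsc70-4, the Hsp40 cochaperone gene DnaJ-1, and lncRNA:Hsromega, a noncoding RNA that collects RNA-processing proteins in nuclear speckles after heat.

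An IDR summit lay within 500 bp of a start in 7 of the 10 members (70%), against 22.3% of all genes and 26.4% of the 13945 protein-coding genes. The 7 were Hsp22, Hsp26, Hsp27, Hsp83, Hsc70-4, DnaJ-1 and lncRNA:Hsromega, each at a different peak; Hsp23, Hsp67Ba and Hsp67Bc had none. In the 7717 strongest peaks of each library, 7, 6 and 7 members had such a summit in replicates 1, 2 and 3. Of all genes, 22.4%, 20.5% and 23.1% had one. In all 3 libraries, 6 members had it, against 17.4% of all genes. Hsp22 was the member that failed in replicate 2, where its summit was 528 bp from the nearest start. With a single group, no test between conditions was possible, and the shares are descriptions of 10 genes chosen by name.

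The 7 peaks differed in strength. Their median signal percentile among IDR peaks was 87.0, against 55.7 for all genes with a promoter summit, but they ran from rank 65 at Hsp27 to rank 4857 at DnaJ-1, while the 3223 IDR peaks near any start had a median rank of 3546. Hsp27 came first of the 7 in every library. Hsp26, lncRNA:Hsromega, Hsc70-4 and Hsp83 followed in an order that changed between libraries, and Hsp22 and DnaJ-1 took the last places and swapped them in replicate 3.

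**Figure D1:**
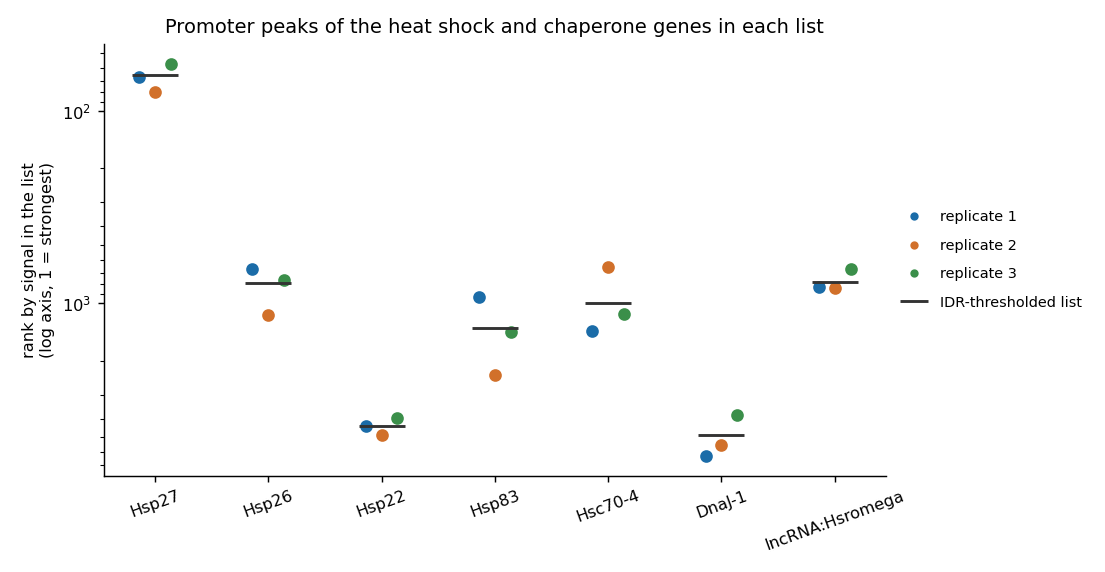
Rank by signal (vertical log axis, the strongest at the top) of the promoter peak of each of the 7 members with one, in replicates 1, 2 and 3 (points) and in the IDR peaks (bars). Hsp27 sits at ranks 57 to 80 in the libraries, above every other member, and Hsp22 and DnaJ-1 sit lowest, between 3822 and 6265.

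Relative to the Hsp27 peak of the same library, the signal of lncRNA:Hsromega was 31.3 ± 1.53%, that of Hsp26 29.9 ± 3.92%, that of Hsc70-4 27.03 ± 8.09% and that of Hsp83 21.3 ± 5.73% (SD, n = 3 libraries). In this order, each of the 4 overlapped its neighbour in library values. Hsp22 at 9.10 ± 0.584% and DnaJ-1 at 8.0 ± 1.70% (SD, n = 3) lay below the lowest library value of the other 4, and did not differ from each other beyond their spread.

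The small heat shock genes lie together on 3L from 9371511 to 9385694, in 14184 bp that overlap 8 protein-coding genes, an antisense RNA gene and the pseudogene CR43483. This cluster held 3 IDR peaks, at Hsp22 and its neighbour CG4456 (shared), at Hsp26 and at Hsp27. The Hsp27 peak held 71.6% of the summed IDR signal of the cluster. Over all summits there, weak ones included, it held 61.5%, 68.9% and 66.5% in replicates 1, 2 and 3. The same 3 sites were the ones among the strongest peaks of every library. Summits with a q value of 0.05 or less numbered 8 in replicate 1, 3 in replicate 2 and 4 in replicate 3. At that limit, no further summit of replicate 1 had a counterpart within 250 bp in another library. Without the limit, those at 9378350 and 9380458 had one in replicate 3, at 9378559 and 9380554. The further summit at 9381669 had one in replicate 2, at 9381675. Those at 9372249 and 9381967 had none. Along the cluster, the small heat shock genes ran Hsp67Bc without a promoter IDR summit, CG4456 and Hsp22 with a shared one, CG4461 without, Hsp26 with, Hsp67Ba and Hsp23 without, and Hsp27 with.

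**Figure D2:**
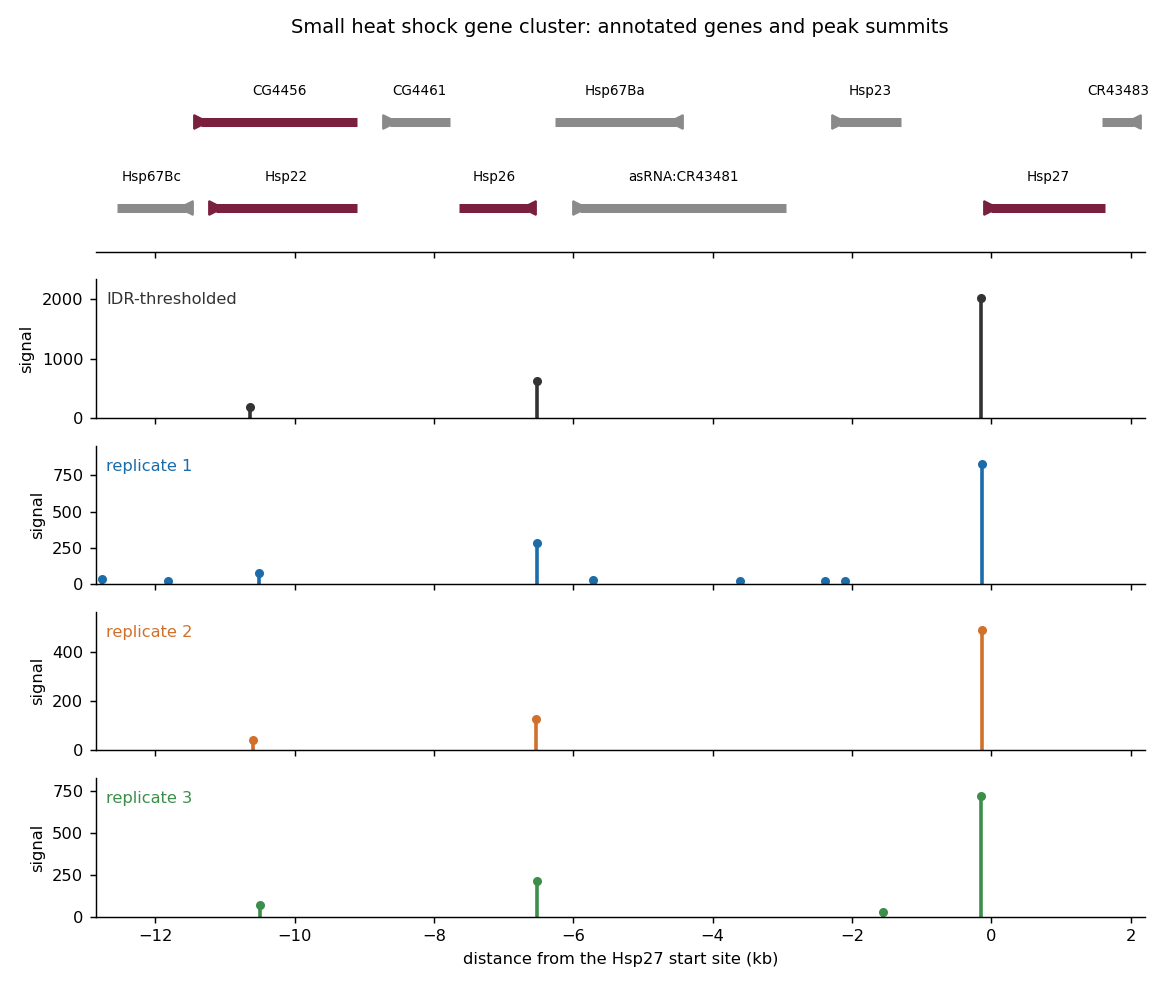
Small heat shock gene cluster, with distance from the Hsp27 start on the horizontal axis (kb). The top panel draws the annotated genes, with a triangle at the start, dark where an IDR summit lies within 500 bp; the lower panels give the signal of every summit with a q value of 0.05 or less in the IDR peaks and in each library. The Hsp27, Hsp26 and Hsp22 summits recur in all 4 lower panels, and the Hsp27 summit is the highest in each.

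Hsp27, a small heat shock protein, had the strongest member peak, from 9383698 to 9384121 on 3L; the peak reaches over the start at 9384063, and its summit lies in the intergenic stretch before the gene. Its signal was 829, 489 and 717 in replicates 1, 2 and 3, at ranks 67, 80 and 57 of lists with 25547 to 30000 peaks. The summits lay 135, 137 and 144 bp upstream of the start, a spread of 4.73 bp (SD, n = 3), while the median SD over 3018 promoter IDR peaks with a summit in every library was 19.1 bp. The position was thus one of the tightest among the members, next to Hsc70-4.

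Hsp26, a cytosolic small heat shock protein, had its IDR summit 120 bp upstream of the distal of its 2 starts (rank 793). Its signal was 281, 127 and 214 in replicates 1, 2 and 3, at ranks 666, 1162 and 758. The summits lay 121, 101 and 120 bp upstream, with an SD of 11.3 bp (n = 3). The peak was present in all 3 libraries, and its rank was lowest in replicate 2.

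The 101 bases centred on the IDR summits of these genes show that the base composition and motifs under the peaks differ. Capitals in Hsp26 mark a pair of inverted heat shock units, GAANNTTC, whose middle is 4.5 bases from the summit; the Hsp27 window holds no such pair, and has no capitals. The sequences are from the Release 6 reference genome and are written 5′ to 3′ on the strand of the gene.
Hsp27 summit, chr3L:9383869-9383969, plus strand: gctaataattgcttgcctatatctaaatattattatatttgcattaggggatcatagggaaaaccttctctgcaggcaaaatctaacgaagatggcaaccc
Hsp26 summit, chr3L:9377497-9377597, minus strand: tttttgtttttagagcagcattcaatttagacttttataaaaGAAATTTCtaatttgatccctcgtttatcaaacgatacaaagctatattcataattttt

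The share of A and T in these windows was 63.4% at Hsp27 and 76.2% at Hsp26, against a median of 65.3% (quartiles 58.4% and 71.3%) over the 3223 promoter summits. The nearest pair to the Hsp27 summit was 190.5 bases away. Within 250 bases of the Hsp26 summit there were 5 pairs.

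Hsp22, a mitochondrial small heat shock protein, was the member closest to the edge of the 500 bp window. Its IDR summit (rank 4373, signal 185) was 498 bp downstream of the upstream start, which CG4456 shares, and 568 bp upstream of the second start. There it lay in the 5′ UTR of the longer Hsp22 transcript and in the coding sequence of CG4456, so the peak cannot be given to either gene alone. The signal was 77.4, 41.3 and 68.4 in replicates 1, 2 and 3, at ranks 4349, 4879 and 3983. The library summits were 448, 538 and 436 bp upstream of the second start, with an SD of 55.7 bp (n = 3), the widest of the 7 members. The nearest gene outside the window was Hsp67Bc, 932 bp from this same summit.

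Of the 3 members without an IDR peak, Hsp23, a cytosolic small heat shock protein, had the most library summits within 500 bp of its start. Replicate 1 held summits at −213 and +85 bp from its start, negative being upstream, at ranks 12990 and 14968 and q values of 0.05 or less. Replicate 2 held a summit 207 bp upstream at rank 9190 with a q value of 0.0816, and the nearest in replicate 3 was 620 bp downstream (rank 10151, q of 0.0283). None was among the 7717 strongest of its library, and the nearest IDR summit, 2037 bp away, was that of Hsp27.

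Hsp67Bc, a small heat shock protein linked to autophagy, had summits 248 and 49 bp downstream of its start in replicate 1, at ranks 15050 and 22551 and q values of 0.0127 and 0.247, and none within 500 bp in replicates 2 and 3. Within 500 bp of the Hsp67Ba start, the libraries held only a summit at rank 27480 with a q value of 0.475 in replicate 1, 399 bp upstream. Replicate 1 also held a summit inside the gene, 1184 bp downstream of the start, at rank 11477 and with a q value of 0.05 or less, and the nearest IDR summit was 1987 bp away, at Hsp26. The 3 genes thus had low-ranked summits in some libraries and none that recurred among the strongest.

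The 200 bases before the starts of Hsp23 and Hsp67Bc are shown because both promoters hold a heat shock pair, in capitals, and neither has an IDR peak. In Hsp23 the pairs lie from −168 to −161 and from −138 to −131, and in Hsp67Bc from −119 to −112, counting the first transcribed base as 0.
Hsp23 upstream, chr3L:9381682-9381881, plus strand: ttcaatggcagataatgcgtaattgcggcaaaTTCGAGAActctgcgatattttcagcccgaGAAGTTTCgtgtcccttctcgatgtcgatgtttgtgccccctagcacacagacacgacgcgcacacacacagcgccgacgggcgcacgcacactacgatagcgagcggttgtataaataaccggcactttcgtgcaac
Hsp67Bc upstream, chr3L:9372498-9372697, minus strand: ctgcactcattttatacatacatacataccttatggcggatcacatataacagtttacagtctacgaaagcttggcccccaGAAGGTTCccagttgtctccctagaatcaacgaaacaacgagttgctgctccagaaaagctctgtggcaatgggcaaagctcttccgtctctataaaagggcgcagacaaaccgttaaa

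Hsp83, the cytosolic Hsp90 that matures steroid receptors and kinases, had peaks at its promoter and inside its first intron, and the intronic peak was the stronger in every list. The promoter summit was 104 bp upstream of the second start, inside the 5′ UTR of the transcript that begins at 3192969, with rank 1346. Its signal was 226, 77.6 and 148 in replicates 1, 2 and 3, at ranks 936, 2379 and 1416. The library summits lay 101, 91 and 126 bp upstream of that start, with an SD of 18.0 bp (n = 3).

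The intronic IDR peak spans 3194124 to 3194420 on 3L (rank 763), with its summit 1066 bp downstream of the second start and 217 bp before the second exon. Its signal was 285, 139 and 205 in replicates 1, 2 and 3, at ranks 638, 1003 and 810. The intronic over promoter ratio was 1.26, 1.79 and 1.39, a mean of 1.48 ± 0.276 (SD, n = 3), and 1.40 in the IDR peaks. Among the 3681 protein-coding genes with a promoter IDR summit, 625 (17.0%) had a further one in the gene body beyond 500 bp of their starts, and in 388 (10.5%) the further one was stronger. Hsp83 was the only member with a further IDR summit in its body. Outside the IDR peaks, lncRNA:Hsromega had a further body summit with a q value of 0.05 or less in every library. It lay 1262, 1308 and 1377 bp downstream of the nearest start in replicates 1, 2 and 3, at ranks 9887, 7179 and 9705.

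The intronic window is shown for its composition: 77.2% of its bases are A or T, at percentile 95.7 of the promoter summits, while the Hsp83 promoter window has 52.5%, at percentile 12.5. It holds no heat shock pair, and the promoter window holds a pair whose middle is 39.5 bases from the summit.
Hsp83 intron summit, chr3L:3194232-3194332, plus strand: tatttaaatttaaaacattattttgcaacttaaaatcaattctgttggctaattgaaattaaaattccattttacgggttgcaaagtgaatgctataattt

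**Figure D3:**
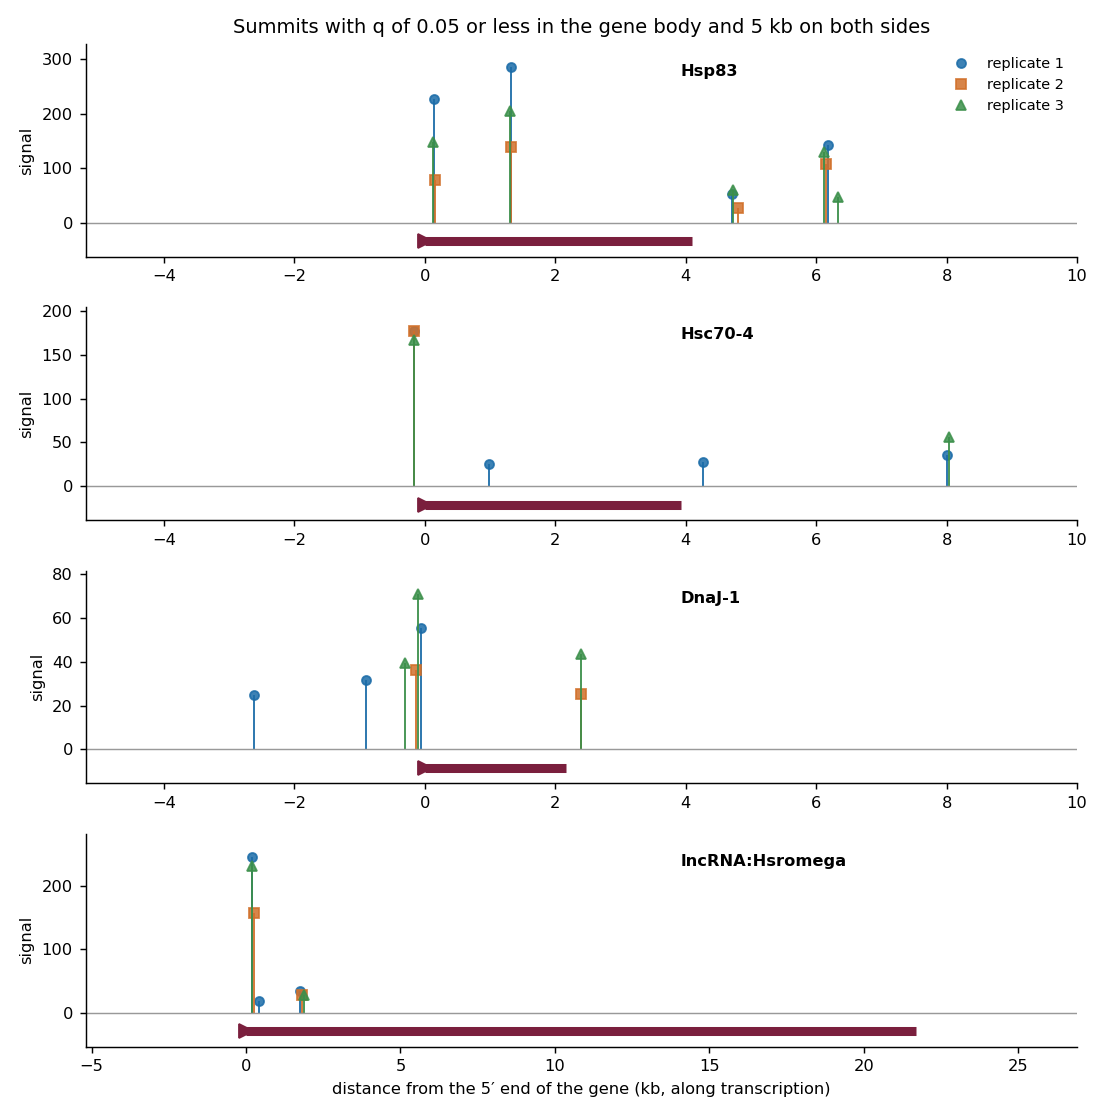
Summits with a q value of 0.05 or less at Hsp83, Hsc70-4, DnaJ-1 and lncRNA:Hsromega in replicates 1, 2 and 3, as signal (vertical axis) against distance from the 5′ end of the gene (kb); the bar below each axis is the gene body. Hsp83 has summits in all 3 libraries at its promoter and in its intron, and the intronic ones are higher; the highest summits at the other 3 genes lie near the start.

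Hsc70-4, the constitutive cytosolic Hsp70, had an IDR peak 165 bp upstream of its first start (rank 1007), between this gene and the divergent gene tefu, the fly ATM kinase, whose start was 286 bp away. The signal was 178, 177 and 167 in replicates 1, 2 and 3, at ranks 1404, 654 and 1142. Relative to Hsp27 of the same library it was the least even of the members, at 21.5, 36.3 and 23.3% in replicates 1, 2 and 3, and replicate 2 gave it its highest rank. The summits lay 167, 161 and 169 bp upstream, with an SD of 4.16 bp (n = 3), the smallest among the members. The peak is shared by both genes and cannot be given to either alone.

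DnaJ-1, an Hsp40 that hands substrates to Hsp70, had the weakest of the 7 IDR peaks, 97 bp upstream of its start. Its signal was 55.2, 36.3 and 71.0 in replicates 1, 2 and 3, at ranks 6265, 5507 and 3822. Its summits lay 59, 140 and 100 bp upstream, with an SD of 40.5 bp (n = 3). In replicate 2 its q value, like that of Hsp22, was short of the ceiling of that library's list.

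lncRNA:Hsromega had its peak inside the gene, 218 bp downstream of the first start and 276 bp upstream of the second, in a noncoding exon (rank 783). Its signal was 245, 156 and 232 in replicates 1, 2 and 3, at ranks 826, 836 and 666. The summits lay 204, 262 and 201 bp downstream of the first start, with an SD of 34.4 bp (n = 3). It and Hsp22 were the members with a summit downstream of the start that was used to find them.

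**Figure D4:**
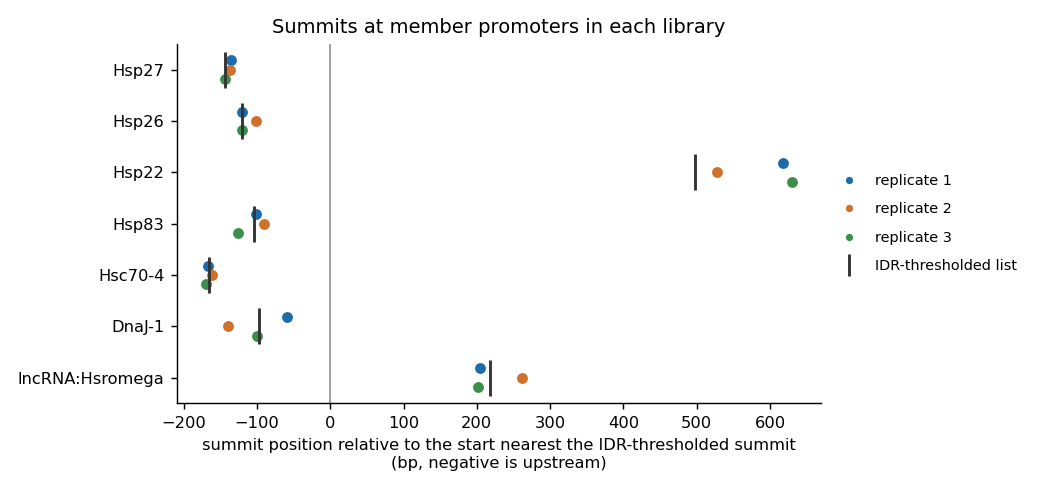
Position of the summit (horizontal axis, bp, negative upstream) at the 7 members in replicates 1, 2 and 3 (points) and in the IDR peaks (bars), relative to the start nearest the IDR summit. Hsp27, Hsp26, Hsp83, Hsc70-4 and DnaJ-1 lie between 59 and 169 bp upstream, lncRNA:Hsromega between 201 and 262 bp downstream, and Hsp22 between 498 and 630 bp downstream.

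The median distance of the 7 summits from the nearest start was 144 bp, against 134 bp for all genes with a promoter summit, and the median SD of the summit over libraries was 18.0 bp, against 19.1 bp for promoter IDR peaks. The median SD of the members was 24.7 bp without replicate 1 and 6.36 bp without replicate 2.

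The summit windows of Hsc70-4 and lncRNA:Hsromega are shown with their heat shock pairs in capitals, GAANNTTC in the first and TTCNNGAA in the second, with middles 11.5 and 35.5 bases from the summit. The DnaJ-1 window has no such pair, and its capitals mark CGATA or its reverse complement TATCG, the core letters associated with the insulator protein BEAF-32; the run TATCGATA is the DNA replication-related element (DRE).
Hsc70-4 summit, chr3R:15242472-15242572, plus strand: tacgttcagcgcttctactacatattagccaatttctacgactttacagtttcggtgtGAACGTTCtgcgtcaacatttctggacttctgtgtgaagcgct
lncRNA:Hsromega summit, chr3R:21296295-21296395, plus strand: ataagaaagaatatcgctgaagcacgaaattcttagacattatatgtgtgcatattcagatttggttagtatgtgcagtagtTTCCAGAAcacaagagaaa
DnaJ-1 summit, chr3L:5752236-5752336, minus strand: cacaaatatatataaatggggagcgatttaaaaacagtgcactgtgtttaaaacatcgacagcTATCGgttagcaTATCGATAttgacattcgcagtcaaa

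Within 50 bases of the summit, a heat shock pair in either orientation (GAANNTTC or TTCNNGAA, both strands) was found in 4 of the 7 member peaks, Hsp26, Hsp83, Hsc70-4 and lncRNA:Hsromega, against 5.46% of the 3223 promoter summits. CGATA was found in 4 of the 7, Hsp22, Hsp26, DnaJ-1 and lncRNA:Hsromega, against 22.6%. TATCGATA, which holds CGATA, was found in DnaJ-1 alone, against 3.69%. The GAGA element GAGAG was found in none of the 7, against 8.28%, and TATAAA in Hsp26 and DnaJ-1, against 17.9%. A match is a run of letters and not a measured site of any factor, and the members were chosen as heat shock genes.

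In the promoter windows, from 250 bases before to 50 after the 5′ end of each gene, 5 of the 10 members held a heat shock pair, against 15.8% of all genes. Of these 5, Hsp26, Hsc70-4 and DnaJ-1 had an IDR peak and Hsp23 and Hsp67Bc had none. Over all genes, 21.1% of the windows with a pair belonged to a gene with a promoter IDR summit, close to the 22.3% of all genes. For TATCGATA the share was 40.3% and for GAGAG 21.7%. At any annotated start rather than the 5′ end, an alternative chosen after seeing the data, 8 members held a pair, against 19.0% of all genes. GAGAG lay in the windows of Hsp22, Hsp23, Hsp26 and lncRNA:Hsromega, 4 of 10, against 29.6% of all genes, and TATAAA in 9 of 10, against 44.0%, with Hsp67Ba the exception.

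The wider loci, each gene body plus 5 kb on both sides, held 13 different IDR summits, of which 4 fell in the loci of more than 1 member. Of the 13, 7 were the member promoter peaks, 4 lay within 500 bp of starts of other genes, and 2 lay near no start: the Hsp83 intron and a summit in an intron of CG42404 downstream of Hsc70-4 (rank 7454). The neighbours with their own peak were CG14966 and the pair gry and CG32276 beyond Hsp83, and Fdx1 and the pair CG4452 and Klp67A beside Hsp67Bc. These neighbouring peaks ranked from 1723 to 6459, below the promoter peaks of Hsp27, Hsp26, lncRNA:Hsromega, Hsc70-4 and Hsp83.

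Other chaperone genes were examined by family, from lists chosen with results of these data already known. Of 65 such genes 30 (46.2%) had a promoter IDR summit, against 22.3% of all genes. Among the strongest library peaks, 27, 25 and 29 had one in replicates 1, 2 and 3, against 22.4%, 20.5% and 23.1% of all genes. Among the 57 whose promoter windows are at least 80% unique in the genome, the 30 made 52.6%. The members were listed as genes with unique promoter sequence, so their own windows were unique by that choice, with Hsp83 lowest at 94.2%. No share was taken over all genes with unique windows.

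The lists differed in their counts, each to be read beside the 22.3% of all genes with a promoter IDR summit. In the small heat shock list, which also holds genes outside the cluster, CG4456 alone of 6 was bound, through the summit it shares with Hsp22. No gene of this list was bound in any library by the 500 bp rule. The shared peak was present in each, with summits 618, 528 and 630 bp from the nearest CG4456 start in replicates 1, 2 and 3. In the Hsp70 family 2 of 12 were bound, the mitochondrial Hsc70-5 (rank 835) and the nucleotide exchange factor Hsp110 (rank 6301), both in all 3 libraries; 6 of the 12 are not unique enough to be read, all of them the near-identical heat-inducible Hsp70 copies. The ER chaperone Hsc70-3 and the heat-inducible Hsp68 have unique windows, and their nearest IDR summits were 11494 and 6535 bp away. Of the Hsp70 family 16.7% were thus bound, and 33.3% of the 6 with unique windows, against 22.3% of all genes.

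Among Hsp90 relatives and cochaperones 6 of 10 were bound, against 22.3% of all genes. They were led by CG1416 (rank 1918), the ER Hsp90 Gp93 (rank 2089) and the kinase cochaperone Cdc37 (rank 5640). The J-domain list, the family of DnaJ-1, had 8 of 12, led by mrj (rank 818), DnaJ-H (rank 1040) and P58IPK (rank 2638). DnaJ-1 itself (rank 4857) ranked above only the weakest of these 8 (rank 5078). Chaperonins had 7 of 13, led by CG11267, the fly Hsp10 (rank 1170), and the CCT ring subunits CCT8 (rank 1794) and CCT3 (rank 2647). The CCT8 and CCT3 summits lay 436 and 483 bp upstream of a start, near the edge of the 500 bp window. Mitochondrial Hsp60A was bound at rank 4035. Prefoldin, which passes nascent chains to the CCT ring, had 3 of 6, mgr, Pfdn2 and Pfdn6.

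Among regulators of the heat shock response, 3 of 6 had a promoter IDR summit, against 22.3% of all genes. These were Trl, which encodes the GAGA factor (rank 447), the Hsp70 cofactor gene stv (rank 4502) and CG5446 (rank 6049). Hsf, the gene of the heat shock factor, had its nearest IDR summit 6094 bp from a start. The Trl peak outranked every member but Hsp27.

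**Figure D5:**
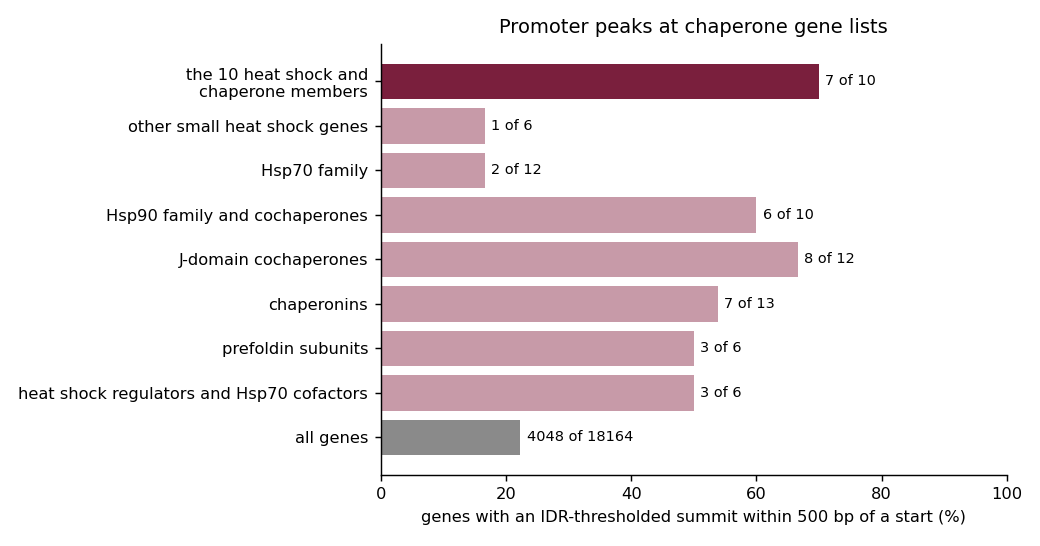
Percent of genes with an IDR summit within 500 bp of a start, for the 10 members (top), the other chaperone lists and all genes (bottom), with counts beside the bars. The 10 members reach 70%, the lists run from 1 of 6 and 2 of 12 to 8 of 12, and all genes stand at 22.3%.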

How the data were processed

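Peaks were measured in 3 libraries of 1 group. Per the deposited listing, the authors called peaks with background kept on each library and on the libraries pooled, and thresholded them on IDR; the sources used here do not give the aligner, the caller or their versions, and the control was not analysed here. Per the labels, chromatin was sonicated to 200 to 800 bp. The signal of each peak is the authors' deposited value, of unknown scale, so signals were compared only within a list; the q value is deposited as −log10 with a ceiling. The library lists held 30000, 28592 and 25547 peaks on the 6 arms, of which 17347, 8592 and 10806 had a q of 0.05 or less. The files give no read counts, so depth is unknown and no counting interval is given. Lists on dm3 were not used.

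Summits were compared with the starts of 18164 genes (Ensembl release 115, all 65 other chaperone genes matched by symbol) and sequence was read from the RefSeq copy of the Release 6 genome, the assembly of dm6. A library summit belonged to an IDR summit within 250 bp. Uniqueness was the share of 31-mers found once. Python 3.11.15, numpy 2.4.6, pandas 2.3.3 and matplotlib 3.10.9 were used, and the rules were tested on simulated data. No test was run, since there is 1 group. Members, lists and motifs were chosen with earlier results of these data known. Named genes were the members, genes sharing their peaks or lying in the cluster, and up to 4 bound genes per list with the strongest peaks, besides unbound genes with their distance; genes beside other peaks of the loci were named after their values were seen. Alternatives were other windows, lists, start rules and thresholds, leaving out each replicate, and, added after seeing the data, motifs at any start.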

Additional observations from a re-analysis of the deposited data

How the results depend on the processing

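The number of members with a promoter summit stayed at 7 with the 5′ end alone, with pooled peaks of q 0.05 or less, and without each replicate in turn. It was 6 with a 250 bp window (Hsp22 lost) and 8 with 1000 bp (Hsp67Bc gained). The gain came through the peak of Hsp22 and CG4456, 932 bp away, so the separate peaks stayed at 7. The number of members was 5 in the 3858 strongest IDR peaks (Hsp22 and DnaJ-1 lost). It was also 5 where the peak had to overlap the start (Hsp22 and Hsc70-4 lost), and 10 in the whole pooled list, which holds background. Hsp26, Hsp27, Hsp83 and lncRNA:Hsromega had a promoter summit under all of these. The median distance of the members was 132 bp with the 250 bp window, 154.5 bp with 1000 bp and 120 bp with overlap. Their median signal percentile, 87.0, was 88.4 with 250 bp, 84.8 with 1000 bp, 79.5 in the 3858 strongest, 92.2 and 88.6 in the pooled list with and without the q limit, 89.7 with overlap, 100 when ranked by q, where most peaks are tied at the ceiling, and 84.1 to 84.6 leaving out a replicate. The share of all genes, 22.3% in the main setting, also changed with the rule. It was 17.3% with 250 bp, 26.993% with 1000 bp and 20.4% with the 5′ end alone. In pooled peaks of q 0.05 or less it was 31.3%. It was 13.1% in the 3858 strongest, 43.4% in the whole pooled list and 13.1% with overlap. Without replicates 1, 2 and 3 in turn it was 18.3%, 19.6% and 18.0%. The share of the other chaperone genes was 21.5% in the 3858 strongest and 26.2% with overlap. Members with a heat shock pair, 5 in the main window, numbered 0 for 3 units in a row, against 0.424% of all genes, 9 within 500 bases on both sides, against 44.4%, and 8 at any start, against 19.0%. The median SD of the summits, 18.0 bp with all libraries, was 6.36 to 24.7 bp leaving out a replicate, lowest without replicate 2 and highest without replicate 1. The cause of these shifts was not tested beyond what each rule changes by construction. No paired analysis was possible because there is 1 group. Depth is unknown, so a missing IDR summit at Hsp23, Hsp67Ba or Hsp67Bc says only that no peak there was kept by IDR.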
